A study of Mus musculus with 12 samples.

Results

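Ribosomal protein genes were traced through 3 tables that list what was captured with the microRNA Mirlet7d in MLE-12 cells, an immortalised mouse lung epithelial line. Members were taken by symbol: Rpl or Rps followed by a digit, Rpsa and Rplp0 for the cytosolic ribosome, and Mrpl or Mrps followed by a digit for the mitochondrial ribosome. This gave 56 genes, 29 cytosolic and 27 mitochondrial, of 5714 genes named in the tables. The symbol rule also takes in the pseudogene Rps15a-ps4, Rps27l, a paralog of Rps27, and Rps19bp1, which encodes a binding partner of Rps19 and not a ribosomal protein. Of 169 protein-coding mouse genes with such symbols, 55 (32.5%) stood in at least 1 table, against 4829 of all 21027 protein-coding genes (23.0%).

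The series holds 12 libraries of MLE-12 cells, each the single member of its group. In the pull-down, cells were transfected with 25 nM of biotinylated Mirlet7d and collected after 48 h, and RNA held on streptavidin beads was sequenced beside the pull-down's input library. In ChIRP-seq, in which labelled oligonucleotides fish out an RNA with its chromatin so that the DNA can be sequenced, a library labelled as Mirlet7d gain-of-function was incubated for 4 h with 150 pmol of probes tiling Mirlet7d. Both assays therefore share the line and, by their labels, added Mirlet7d, and neither assay had a capture with an unrelated RNA or probe among the files used here. With 1 library per group no value has a replicate error, no test between conditions was possible, and all intervals given cover counting error only. Of 9 lung epithelial marker genes none was listed among mRNAs or promoter-associated ncRNAs and 4 were nearest to a peak, and of 5 blood and mesenchymal markers 1 was listed with an ncRNA and 3 were nearest to a peak. All 3 tables are selected lists, so the cell type could not be checked from levels.

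Cytosolic ribosomes are built in the nucleolus from ribosomal RNA and ribosomal proteins encoded in the nucleus, and they translate nearly all cellular mRNAs. Mitochondrial ribosomes have their own set of proteins, also encoded in the nucleus and imported into the organelle, where they translate the few mRNAs of the mitochondrial genome. Cytosolic ribosomal protein mRNAs are among the most abundant of dividing cells, many of their genes carry small nucleolar RNAs in introns, and most have processed pseudogene copies. The let-7 family, to which Mirlet7d belongs, is known for pairing of its seed, bases 2 to 8, with sites in target RNAs.

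The captured microRNA is shown first because its seed defines the site that was searched for at the members' promoters. Its mature sequence is from RefSeq, GRCm38.p6, with the seed in capitals:
mmu-let-7d-5p, chr13:48536078-48536099, minus strand: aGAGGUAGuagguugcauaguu
The reverse complement of the seed, CTACCTC, was searched on both strands of windows from 250 bases before to 50 after each RefSeq start. It was found in 4 of 139 protein-coding ribosomal protein genes with a window (2.88%), against 4.36% of 16852 protein-coding genes. The 4 were Mrpl46, Mrps11, Mrps12 and Rpl27a. Mrpl46 and Mrps11 were also among the captured mRNAs. They are neighbours with starts 42 bases apart, so their windows overlap and the same match may count for both. None of the 7 members with a promoter peak and a window held the match, which says only that these letters are not in those windows.

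Promoters of 4 mitochondrial ribosomal protein genes are shown, those of the mitochondrial genes among the 7 members whose start site was spanned by a ChIRP-seq peak. Each line gives 250 bases upstream of the RefSeq start in GRCm38.p6, with matches to 2 known promoter motifs in capitals. These were the NRF-1 core (GCGC, any base, then TGCGC), bound by a regulator of nuclear genes for mitochondrial proteins, in the promoters of Mrpl45 and Mrpl39, and the ETS factor core CCGGAAG in those of Mrpl51 and Mrpl34, both searched on either strand.
Mrpl45, chr11:97315466-97315715, plus strand: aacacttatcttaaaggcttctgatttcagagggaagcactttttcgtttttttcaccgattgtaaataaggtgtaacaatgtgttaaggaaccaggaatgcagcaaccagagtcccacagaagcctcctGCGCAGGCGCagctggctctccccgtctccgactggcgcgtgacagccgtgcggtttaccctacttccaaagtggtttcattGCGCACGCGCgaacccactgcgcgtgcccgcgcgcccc
Mrpl39, chr16:84735245-84735494, minus strand: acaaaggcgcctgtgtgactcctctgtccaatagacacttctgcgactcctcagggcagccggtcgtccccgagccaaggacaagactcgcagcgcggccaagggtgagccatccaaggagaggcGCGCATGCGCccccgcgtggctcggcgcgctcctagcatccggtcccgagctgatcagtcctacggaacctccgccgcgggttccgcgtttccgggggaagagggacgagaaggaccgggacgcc
Mrpl51, chr6:125191950-125192199, plus strand: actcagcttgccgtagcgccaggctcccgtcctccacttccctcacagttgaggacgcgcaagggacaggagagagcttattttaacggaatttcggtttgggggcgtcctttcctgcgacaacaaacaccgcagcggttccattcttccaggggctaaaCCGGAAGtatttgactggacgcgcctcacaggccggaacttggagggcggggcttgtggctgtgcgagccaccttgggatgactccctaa
Mrpl34, chr8:71464676-71464925, plus strand: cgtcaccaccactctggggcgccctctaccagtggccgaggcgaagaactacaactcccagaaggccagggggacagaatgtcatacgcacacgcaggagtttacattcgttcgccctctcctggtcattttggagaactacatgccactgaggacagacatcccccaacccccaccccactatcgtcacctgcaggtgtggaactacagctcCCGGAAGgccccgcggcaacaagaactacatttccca
In Mrpl45 the core stood at bases -120 to -111 and -38 to -29 from the start, and a further match lay downstream at 16 to 25. In Mrpl39 the core stood at bases -125 to -116. The ETS core stood at bases -90 to -84 in Mrpl51 and -37 to -31 in Mrpl34. The NRF-1 core was present in 23.3% of 43 mitochondrial large subunit genes with a window and in 6.98% of 43 cytosolic large subunit genes, against 7.42% of protein-coding genes. In the small subunits the shares were close, 11.5% of 26 mitochondrial and 11.1% of 27 cytosolic genes. The ETS core was present in 34.9% of genes in both large subunits, 42.3% in the mitochondrial and 40.7% in the cytosolic small subunit, against 13.3% of protein-coding genes. Among the 7 members with a promoter peak and a window, 2 held the NRF-1 core and 3 the ETS core, the third being Rpl19. Rps13 and Rps19bp1 held neither. This set includes Rps19bp1 and leaves out Rps14, which had no window, unlike the 7 whose start site was spanned. The motifs do not overlap, and a match is a description of the letters, not a binding site.

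Which ribosomal protein mRNAs were recovered with Mirlet7d was read from the mRNA candidates, a list of 1964 transcripts of 1509 genes. It held 13 members, 5 cytosolic and 8 mitochondrial. That is 7.69% of the 169 protein-coding ribosomal protein genes, near the 6.83% of all protein-coding genes that were listed. By origin the shares were 5.49% of 91 cytosolic and 10.3% of 78 mitochondrial genes. The 13 genes had 16 transcript entries, and the fold, which is pull-down RPKM (reads scaled to the length of the span and the size of the library) over input RPKM, had a median of 6.78 and ran from 2.66 to 36.38. The median of the whole list was 4.93, and 11 of the 16 entries lay above it. These include overlapping transcripts of Mrps10 and of Rpl34, which are not independent. With a single transcript per gene the members' median was 6.58. The lowest fold the authors listed was 2.5, so nothing below that value can be seen.

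**Figure D1:**
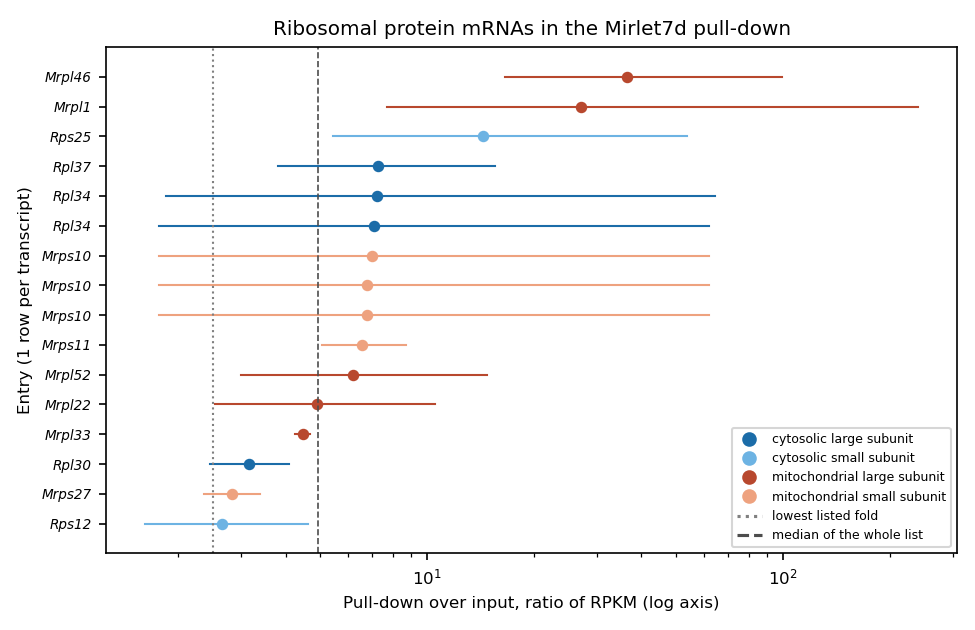
Fold of each listed ribosomal protein mRNA, pull-down over input RPKM on a log axis, 1 row per transcript, coloured by subunit; bars are 95% exact intervals from recovered read numbers, the dotted line is the lowest listed fold of 2.5 and the dashed line the list median of 4.93. Mrpl46 and Mrpl1 stand highest, Mrpl33 has the shortest bar, and the bars of Rpl34 and Mrps10, which rest on 2 input reads, run from below 2 to above 60.

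Of the mitochondrial large subunit, Mrpl46 had the highest fold of all members. Its mRNA, chr7:85920122-85927952 in mm9, was at 0.032 RPKM in the input and 1.164 in the pull-down. The fold was 36.38 (95% exact interval 16.5 to 99.4), from 6 input and 383 pull-down reads, and it ranked 118 in the list. Mrps11, a component of the small subunit, is its neighbour at chr7:85928005-85937875, and the 2 spans are 53 bases apart in mm9. It went from 0.255 to 1.678 RPKM, a fold of 6.58 (5.05 to 8.72) from 60 and 696 reads. The intervals of these neighbours did not overlap, the fold of Mrpl46 being the higher.

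Mrpl33, a small protein of the mitochondrial large subunit, was the most abundant member. Its mRNA at chr5:31916312-31925017 stood at 9.714 RPKM in the input and 43.395 in the pull-down, which ranked 9 among all pull-down values of the list. With 2017 and 15874 reads its fold of 4.47 had the narrowest interval of the members' mRNA entries, 4.26 to 4.68. This placed the deepest measured member slightly below the list median of 4.93. As an ncRNA entry over nearly the same span, described below, Mrpl33 had a lower fold, 2.56 (2.46 to 2.68).

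Mrpl1, a homolog of the bacterial stalk protein L1, had the next highest fold, 27, but from 0.003 RPKM in the input. That input corresponds to 2 reads against 101 in the pull-down, and the interval ran from 7.73 to 240. Mrpl52 went from 0.118 RPKM in the input to 0.729 in the pull-down, a fold of 6.18 (3.0 to 14.7). Mrpl22, the homolog of a protein that lines the exit tunnel, went from 0.053 to 0.259 RPKM, a fold of 4.89 (2.53 to 10.5). All 5 large subunit entries had intervals above 2.5, although those of Mrpl1 and Mrpl46 were wide.

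Of the mitochondrial small subunit, Mrps10 was listed with 3 transcripts, all at 0.009 RPKM in the input and 0.061 to 0.063 in the pull-down. Their folds of 6.78 to 7.0 rest on 2 input reads shared by the 3 overlapping spans, and the interval was 1.77 to 61.8. Mrps27, a pentatricopeptide repeat protein, went from 0.088 to 0.249 RPKM over its long gene, a fold of 2.83 (2.36 to 3.39) from 149 and 741 reads. Its interval reached below the listing limit of 2.5.

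Among cytosolic members Rps25, a small subunit protein known from work on internal ribosome entry, had the highest fold. It went from 0.062 to 0.893 RPKM, a fold of 14.4 (5.43 to 53.6) from 4 and 101 reads. Rps12, of the same subunit, had the lowest fold of all members, 2.66 (1.61 to 4.62), from 0.393 and 1.046 RPKM. The intervals of these small subunit mRNAs did not overlap.

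Of the cytosolic large subunit, Rpl37 went from 0.166 to 1.205 RPKM, a fold of 7.26 (3.82 to 15.5). Rpl30, which in other species is known to bind its own transcript, had the highest cytosolic levels, 1.159 RPKM in the input and 3.65 in the pull-down. Its fold was 3.15 (2.46 to 4.08) from 75 and 416 reads. Rpl34 had 2 transcripts at 0.024 RPKM in the input and 0.17 and 0.174 in the pull-down, with folds of 7.08 and 7.25 on 2 input reads each. Cytosolic and mitochondrial entries thus covered overlapping ranges of fold, and the 2 highest values were both mitochondrial.

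Every one of the 16 intervals lay above 1, and 8 of 16 lay wholly above 2.5. The list holds no fold below 2.5, so intervals above 1 follow in part from that selection. In 6 entries (both of Rpl34, Mrpl1 and the 3 of Mrps10) the input rested on 3 reads or fewer. RPKM was scaled by the authors to the whole gene span, introns included, so levels here are per span and not per spliced mRNA.

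Which ncRNAs at ribosomal protein promoters were recovered was read from the promoter-associated candidates, 2432 of the 6208 ncRNA candidates, listed at 1624 genes. Ribosomal protein genes were listed here more often than in the mRNA table. The list named 29 members, the pseudogene Rps15a-ps4 among them, and the other 28 were 16.6% of the protein-coding ribosomal protein genes, beside 6.23% of all protein-coding genes. Cytosolic genes (16 of 91, 17.6%) and mitochondrial genes (12 of 78, 15.4%) had similar shares. Each of the 4 subunit classes lay above the share of all genes, from 14.3% of mitochondrial large subunit genes to 20% of cytosolic small subunit genes. No test of this difference was made, since the set was proposed with results of these data known.

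**Figure D2:**
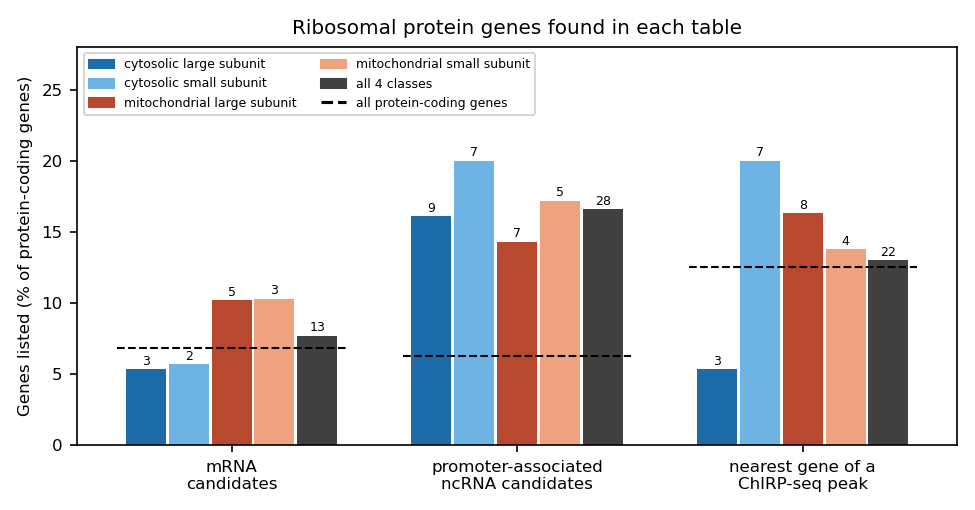
Share of protein-coding ribosomal protein genes found in each table, by subunit class and for all 4 classes, with the number of genes above each bar and the share of all protein-coding genes as a dashed line. All bars for promoter-associated ncRNAs stand above their line of 6.23%, whereas the bars of all 4 classes together for mRNAs (7.69%) and peaks (13.0%) stand close to theirs.

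The folds of these ncRNAs were not high. The members' 45 entries, which merge into 31 loci, had a median fold of 3.64 (2.51 to 47.68), against 5.125 in the whole list, and 16 of 45 lay above that value. Their levels were higher than those of the list: the input median was 2.131 RPKM against 0.9175, and the pull-down median 8.819 against 3.954. In the pull-down 38 of 45 entries lay above the median of the list. The background of 6.23% covers genes expressed in these cells or not, and the part of the higher level in the count of members was not tested.

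**Figure D3:**
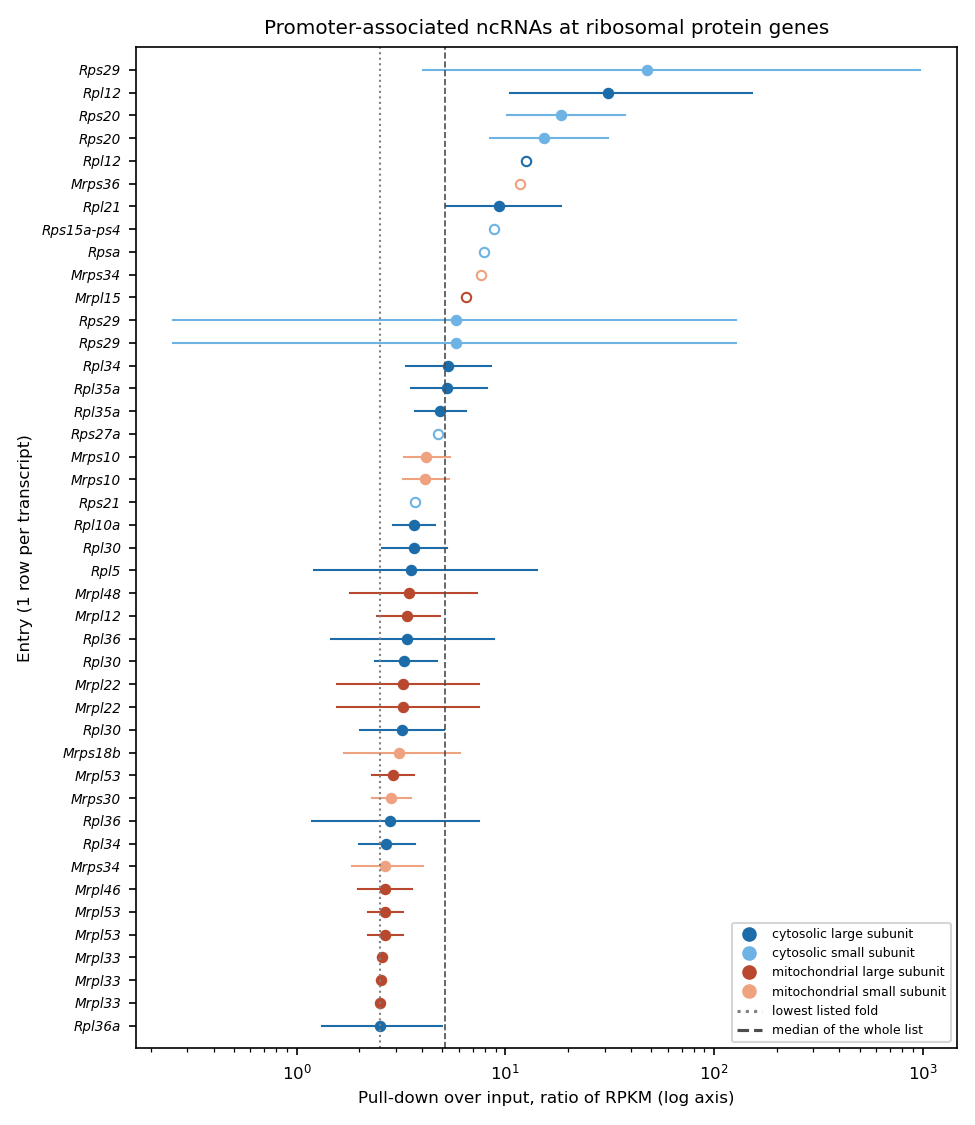
Fold of 43 of the 45 promoter-associated ncRNAs at ribosomal protein genes, pull-down over input RPKM on a log axis, 1 row per transcript, coloured by subunit; filled points carry 95% exact intervals, open points have an input of exactly 1 RPKM and no interval, and lines mark the lowest listed fold of 2.5 and the list median of 5.125. Cytosolic entries hold the 5 highest folds plotted, and mitochondrial large subunit entries crowd near 2.5.

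The cytosolic small subunit had the highest class median, 7.94 over 11 entries, which is the fold of an Rpsa entry with an input of exactly 1 RPKM. Rps20, a protein of the head of that subunit, had the best supported high folds. Its ncRNA at chr4:3761620-3762635 went from 2.243 RPKM in the input to 41.602 in the pull-down, a fold of 18.55 (10.2 to 37.5) from 22 and 632 reads. A nearly identical span at the same start went from 2.984 to 45.885 RPKM, a fold of 15.38 (8.45 to 31.2). These overlapping transcripts share reads and count as 1 locus.

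Rps29, a zinc-binding protein, had the highest fold of all members, 47.68, at chr12:70259345-70260041. The values were 0.149 RPKM in the input and 7.104 in the pull-down, and the interval of 4.03 to 969 comes from a single input read. Its other entries, at 0.35 and 0.491 RPKM in the input and 2.031 and 2.85 in the pull-down, both had a fold of 5.8 with an interval that included 1 (0.256 to 127). Depth in the input thus limits the folds of Rps29 more than those of Rps20.

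In 4 further small subunit entries the input was listed as exactly 1 RPKM. This value recurs in 8 of the 45 entries (17.8%) and in 457 of all 2432 (18.8%), and the labels do not say where it comes from. Over the spans of Rps21, Rps15a-ps4, Mrpl15 and Rpl12 it is not a whole number of reads, as other input values with enough decimals are. There it cannot be a read count, so those folds set the pull-down level over a fixed value. Such entries were Rps15a-ps4 with a fold of 8.79, Rpsa, the laminin receptor precursor, with 7.94, Rps27a, made as a fusion with ubiquitin, with 4.78, and Rps21 with 3.71. Their pull-down levels ran from 3.712 RPKM at Rps21 to 8.787 at Rps15a-ps4.

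Of the cytosolic large subunit, Rpl12, a protein of the stalk base, had the highest fold. Its ncRNA at chr2:32817252-32818458 went from 0.515 to 16.066 RPKM, a fold of 31.2 (10.5 to 153) from 6 and 290 reads. An overlapping entry with an input of exactly 1 RPKM had a fold of 12.53. Rpl21 followed with 1.703 and 15.891 RPKM, a fold of 9.33 (5.22 to 18.5). Rpl12 and Rpl21 lay apart from the remaining genes of this subunit, none of which exceeded 5.34.

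Rpl34, also listed as mRNA, had ncRNA folds of 5.34 (3.34 to 8.55) and 2.67 (2.0 to 3.71), from 2.223 to 11.881 and from 3.244 to 8.664 RPKM. Rpl35a, mutated in some cases of Diamond-Blackfan anaemia, had folds of 5.28 (3.53 to 8.2) and 4.87 (3.7 to 6.5) and reached 29.355 RPKM in the pull-down. Rpl10a, the cytosolic L1 stalk protein, went from 2.284 to 8.36 RPKM, a fold of 3.66 (2.91 to 4.61). Intervals of these 3 genes overlapped, so counting error does not separate them.

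Rpl30 had 3 entries with folds of 3.64, 3.27 and 3.21, and the shortest, chr15:34372276-34373014, went from 11.921 to 38.929 RPKM. Rpl5, which carries a ribosomal RNA into the nucleolus and binds the p53 regulator Mdm2, was among the weakest in level. It went from 0.469 to 1.667 RPKM, a fold of 3.55 (1.21 to 14.2). Rpl36 had folds of 3.37 and 2.81, and Rpl36a, the lowest member, had 2.51 (1.33 to 4.98).

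Mitochondrial large subunit entries had the lowest class median, 2.77 over 12 entries, close to the listing limit of 2.5. Mrpl33 again had the highest level: its ncRNA at chr5:31916386-31925015 went from 62.133 to 159.357 RPKM, which ranked 12 in the list, with a fold of 2.56 (2.46 to 2.68). Longer Mrpl33 entries had folds of 2.54 and 2.52. Mrpl53 had 3 overlapping entries, the highest going from 11.099 to 29.289 RPKM with a fold of 2.64 (2.19 to 3.24). These 2 genes combine high levels with folds just inside the list.

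Mrpl15 had a fold of 6.46 from an input of exactly 1 RPKM, the highest of this class. Mrpl48 went from 1.063 to 3.679 RPKM, a fold of 3.46 (1.8 to 7.31). Mrpl12, a protein also known to bind the mitochondrial RNA polymerase, went from 3.784 to 12.868 RPKM, a fold of 3.4 (2.43 to 4.87). Mrpl22, with 2 entries, had a fold of 3.23 (1.56 to 7.51) in each, and Mrpl46 had 2.65 (1.98 to 3.59) from 1.982 and 5.25 RPKM. Apart from Mrpl15, no fold of the class exceeded 3.46.

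In the mitochondrial small subunit class Mrps36, whose product is also described as part of a dehydrogenase complex, had a fold of 11.75 and Mrps34 one of 7.62, both from inputs of exactly 1 RPKM. A further Mrps34 entry with an input of 3.729 RPKM had a fold of 2.66 (1.84 to 4.04). Mrps10 had folds of 4.19 and 4.14 over nearly the same span, the first from 2.143 to 8.971 RPKM (3.27 to 5.44). Mrps18b had 3.08 (1.68 to 6.1), and Mrps30, now placed in the large subunit, went from 5.88 to 16.624 RPKM with 2.83 (2.29 to 3.52). The higher folds of this class were those with an input of exactly 1 RPKM.

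Over all members an interval could be computed for 37 entries, of which 35 lay above 1 and 13 above 2.5, in a list selected on the fold. The 2 that included 1 were the short Rps29 entries. Genes for which every entry had an input of exactly 1 RPKM numbered 6, and leaving such entries out gave 13.6% of ribosomal protein genes against 4.93% of all.

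mRNA and ncRNA entries of a gene are not independent. For 6 of the 13 members listed as mRNA, ncRNA candidates lay over the mRNA's span, 13 transcripts in all. This overlap was counted for members only, with no share over all listed mRNAs beside it. At Mrpl22, Mrpl33, Mrps10 and Rpl34 ncRNAs began 5 to 74 bases from the mRNA start and ran along the gene, and a further Mrpl33 ncRNA, chr5:31901106-31925017, began upstream of the mRNA and ran across its start. The same reads can stand in both tables, and no statement on strand was found in the labels of these libraries, so sense and antisense RNA cannot be told apart. At Rpl30 input and pull-down reads were close, 75 and 416 as mRNA and 76 and 428 in the longest ncRNA. At Rpl34 they differed over nearly the same span, 2 and 25 as mRNA but 109 and 451 as ncRNA. At Mrps10 they were 2 and 25 as mRNA but 146 and 947 in an ncRNA inside its span. At Mrpl33 they were 2017 and 15874 as mRNA but 5180 and 20581 as ncRNA over nearly the same span. The Mrpl33 folds, 4.47 (4.26 to 4.68) and 2.56 (2.46 to 2.68), had intervals that did not overlap. The reason for these differences was not tested. The ncRNA listed for Mrpl46, chr7:85928241-85934299, lay wholly inside the Mrps11 span, 236 bases from its start and 289 from the Mrpl46 start. At this shared promoter the captured ncRNA was therefore named for Mrpl46 but covered Mrps11.

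Cytosolic members have many near-identical copies in the genome. Of the 29 cytosolic members 20 have named pseudogenes in RefSeq, with 23 for Rps12, 15 for Rpl21 and 12 each for Rpl19 and Rpsa, against 2 of 27 mitochondrial members. How reads that match several copies were assigned is not given in the sources used here, so cytosolic values are less certain. Nested small nucleolar RNA genes lie in 30 of the 91 cytosolic genes by RefSeq, of which 6 (20%) were in the promoter-associated list, beside 10 of 61 without one (16.4%).

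Where chromatin captured with Mirlet7d lay near ribosomal protein genes was read from the ChIRP-seq peaks. Of 4286 peaks, 25 had a member as nearest gene, at 22 genes: 13.0% of the 169 ribosomal protein genes, close to the 12.5% of all protein-coding genes. Mitochondrial genes had 15 peaks at 12 genes and cytosolic genes 10 peaks at 10. By class the share was lowest in the cytosolic large subunit (3 of 56, 5.36%) and highest in the cytosolic small subunit (7 of 35, 20%). Classes follow the symbol, so the latter includes the paralog Rps27l and the binding partner Rps19bp1. The deposited MACS score, the authors' value for how strongly a peak stands above background, had a median of 34.14 (30.15 to 66.89) against 34.3 for all peaks. Both the share of genes and the median score thus lay close to those of all genes and peaks.

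**Figure D4:**
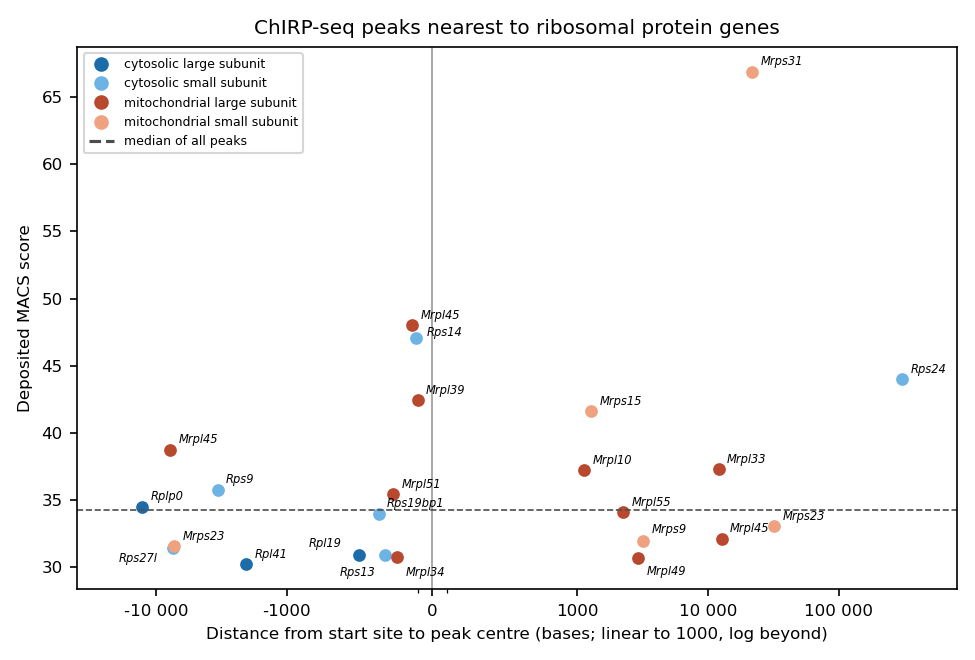
Deposited MACS score of 24 of the 25 ChIRP-seq peaks nearest to ribosomal protein genes against the signed distance in bases from the annotated start site to the peak centre, linear up to 1000 bases and log beyond, coloured by subunit; the dashed line is the median of all peaks, 34.3. The 8 peaks within 1 kb all have their centre upstream of the start, and Mrps31 holds the highest score, 66.89, far downstream.

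Their position differed more. In the authors' annotation 8 of 25 peaks (32.0%, exact interval 14.9 to 53.5) were of the promoter class, which took 9.45% of all peaks. Within 10 kb of a start lay 18 of 25 (72.0%, 50.6 to 87.9), against 42.6% of all peaks, and introns held 8 (32.0%) against 42.6%. Counted by gene, 8 of the 169 genes with such symbols (4.73%) had a promoter peak, against 1.63% of protein-coding genes. Rps19bp1, which does not encode a ribosomal protein, is among the 8. The intervals cover counting of peaks only, and no test was made.

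The promoter peaks fell at 4 mitochondrial and 4 cytosolic genes by symbol, Rps19bp1 among the latter. Mrpl45, which tethers the mitochondrial ribosome to the inner membrane, had the highest at chr11:97176446-97177336 in mm9, with a score of 48.01 and its centre 139 bases upstream of the start. Rps14, a small subunit protein, had a score of 47.04 with its centre 109 bases upstream. Mrpl39 followed at chr16:84735198-84736093 with 42.42, its centre 98 bases upstream. These 3 were the promoter peaks above a score of 40.

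Mrpl51, at chr6:125141578-125142326, had a score of 35.43 and Mrpl34, at chr8:73988265-73988905, one of 30.79. Rps19bp1 had a score of 34.0 and was the one promoter peak that did not reach over the start, from which its near edge lay 26 bases away. Rpl19 and Rps13 both had a score of 30.89, near the lowest listed score of 30.01. So 7 of the 8 promoter peaks spanned the annotated start, the 4 mitochondrial ones in the promoters printed above included.

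Mrpl45 was the member with most peaks, with further ones of 38.76 at 7767 bases upstream and 32.15 in intron 7 of 7. Mrps23 had 2, with scores of 33.06 and 31.59, neither within 1 kb. The highest score of any member was 66.89 at Mrps31, at chr8:23543015-23544045, which is intergenic and 21718 bases from the start. Rps24 had a score of 44.03 at 303799 bases, the farthest of all, so the name there gives only the nearest gene.

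Within member genes, Mrps15 had a peak of 41.63 in intron 2 of 7, Mrpl10, the stalk base protein of the mitochondrial ribosome, 37.25 in intron 1 of 4, Mrpl55 34.14 in intron 3 of 3 and Mrps9 31.93 in intron 1 of 10. Mrpl49 had 30.68 in its last exon, 4 of 4. Peaks named for a member but lying in another gene included those of Rps9 (35.79, in an exon of Tsen34), Rplp0, the stalk protein (34.53, in an intron of Pxn) and Mrpl33 (37.31, in an intron of Rbks). Rps27l (31.45) and Rpl41 (30.22) had intergenic peaks upstream. Of the 25 peaks, 3 lay on SINE repeats, at Mrpl33, Mrpl10 and Mrps23, 12% against 6.72% of all peaks.

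Overlap between peaks and captured RNAs was counted for members only, with no share over all genes beside it. Mrpl33 was in all 3 tables, 6 genes were in 2 (Mrpl22, Mrpl46, Mrps10, Rpl30 and Rpl34 among them, each as mRNA and ncRNA), and 49 were in 1. Of 20 peak genes with a known strand, 1, Mrpl33, had an ncRNA candidate within 2500 bases of its start. There the peak began 2976 bases past the end of the mRNA, with its centre 12071 bases from the start, and it lay wholly inside the longest Mrpl33 ncRNA, chr5:31916329-31944165, which had a fold of 2.52.

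Other genes of translation were counted in the same tables. Of 55 cytosolic translation factor genes 1 was listed as mRNA, Eef2, the elongation factor that moves the ribosome along the mRNA, at 778 RPKM in the input and 2874 in the pull-down, a fold of 3.69. Their share was 12.7% (7 of 55) among promoter-associated ncRNAs and 14.5% (8 of 55) among peaks. The ncRNA genes included Eif4b, a helper of the initiation helicase, with a fold of 14.64, and Etf1, the release factor, with 14.19. The highest peak was at Eif4a2, with a score of 50.32. The promoter-associated share was above the 6.23% of all genes and the peak share near 12.5%, as for the ribosomal proteins, whereas the mRNA share of 1.82% was below the 6.83% of all genes.

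Of 38 genes for mitochondrial translation, 3 were in each table (7.89%). Mtg2, a GTPase of mitochondrial ribosome assembly, stood in the first 2 with folds of 77.67 as mRNA, from 0.006 RPKM in the input, and 30.0 as ncRNA. Tfb1m, which methylates the small subunit RNA, had 24.0 as mRNA, from only 0.003 RPKM in the input. Mtrf1, a release factor homolog, had 15.03, from 0.039 RPKM. No intervals were computed for these genes. The highest peak was at Mtg1, another assembly GTPase, with 43.1. Their promoter-associated share lay closer to the 6.23% of all genes than the 16.6% of ribosomal protein genes did, a difference that was not tested.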

How the data were processed

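Pull-down and input RNA-seq and ChIRP-seq of MLE-12 cells were analysed from deposited tables. Per the submitters' processing notes, both assays used Bowtie2, HOMER, SAMtools, FastQC and bedtools (2.15 for the pull-down) on mm9, the pull-down also Picard 1.119 and Trimmomatic, and ChIRP-seq also MACS. Values are RPKM, per the file headers, scaled to spans with introns. The fold is the authors' deposited ratio, within 0.005 of the quotient of both RPKM. Peaks carry the authors' deposited MACS score.

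RPKM times length fell on whole multiples of 1 read: of values with enough decimals, 99.74% to 100.0% came within 0.15 of a whole read. The steps correspond to 23.85 M (input) and 42.02 M (pull-down) reads for mRNAs but 9.662 M and 14.97 M for ncRNAs, so RPKM was not compared between these tables. Exact 95% Clopper-Pearson intervals of the fold were computed with SciPy 1.17.1, and ncRNA reads entered as pairs, since 79.2% of their input numbers were even. A single input read was counted as 1 pair, which puts the interval around a ratio below the listed fold. Intervals compare 2 libraries, not conditions, and PCR copies are not separable. The step recovery was tested on simulated data. Interval coverage was simulated only for unpaired reads at a moderate input depth, so pairs and inputs of a few reads were not covered.

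Members and lists were chosen with earlier results of these data known. All members of the first 2 tables, and peak members by score, promoter or 2 tables, are named with values, except a few items that are not reported here. Symbols were matched to RefSeq, GRCm38.p6, where all 56 members had an entry and 44 a promoter window. mm9 coordinates are as deposited and were not converted. The background is protein-coding genes with a curated transcript. The other libraries were not analysed here.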

Additional observations from a re-analysis of the deposited data

How the results depend on the processing

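Of 18 alternative values, 15 stayed within 1.5 times the count or within the interval of the median. Requiring a fold of at least 5 left 8 members in the mRNA list (4.73% of ribosomal protein genes against 3.38% of all) and 12 in the promoter-associated list (6.51% of protein-coding members against 3.4%). A peak score of at least 40 left 6 members (3.55% against 3.65%). Peaks within 10 kb of a start left 17 members (10.1% against 6.35%). With a pseudocount of 0.01 RPKM the median mRNA fold was 4.861. No paired analysis was possible because each group holds 1 library and no result comes from a test. Depth limits the folds that rest on 1 to 3 input reads, and the listing limits hide lower folds and scores.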

Other observations

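Some ribosomal protein loci entered the tables under the name of a small nucleolar RNA nested in them and are not among the counts above. Snora64, inside Rps2, a protein of the small subunit's mRNA entry, was listed with 4 promoter-associated ncRNAs. The one at chr17:24857207-24858252 went from 0.198 RPKM in the input to 10.997 in the pull-down, a fold of 55.54, above that of any member. The others had folds of 16.75, 12.29 and 5.0, and pull-down levels up to 49.685 RPKM. No intervals were computed for these entries. At Rps29 an input of 0.149 RPKM rested on 1 read, so the fold of 55.54, from 0.198 RPKM, is also limited by input depth. Among peaks, Snora21, inside Rpl23 of the large subunit, had a score of 71.02 at 2604 bases from the annotated start, also above any member, and Snora7a, inside Rpl32, had 32.03 with its centre 51 bases upstream. These loci were looked at after their values were seen.

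A stretch of chromosome 11 from the Mrpl10 peak to the Rpl19 peak, chr11:96903664-97888066 in mm9, held 40 peaks nearest to 20 genes, 5 of them member peaks at Mrpl10, Mrpl45 and Rpl19. That is 40.6 peaks per Mb over 0.984 Mb, against 5.14 on the whole chromosome. Of the 25 member peaks 8 (32.0%) lay on chromosome 11, against 14.6% of all peaks. The stretch was chosen after the positions were seen.

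Starts facing away from each other within 1000 bases were found for 37.7% of 69 mitochondrial and 18.6% of 70 cytosolic ribosomal protein genes with a window, against 13.5% of protein-coding genes. Among members such pairs were Mrpl46 and Mrps11 (42 bases), Mrpl55 and the lncRNA gene 2610507I01Rik (55), Rpl12 and Lrsam1 (71), Mrps27 and Ptcd2 (108), Mrpl49 and Fau, which encodes a further ribosomal protein (192), Rpl35a and Iqcg (267), Mrpl51 and Ncapd2 (614), and Mrps18b and Ppp1r10 (756). By table the share was 25.0% of 12 members listed as mRNA, 22.2% of 18 with a promoter-associated ncRNA and 15.0% of 20 nearest to a peak. All lay below the 28.1% of all 139 protein-coding ribosomal protein genes with a window.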
